A study of Mus musculus with 11 samples.

Results

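The genes described here encode the proteins with which cells detect microbes and act on that detection: Toll-like receptors (TLRs) and their co-receptors, NOD-like receptors (NLRs), inflammasome components, adaptors, kinases, caspases and gasdermins. Members were chosen by a fixed pattern of gene symbols, and 69 genes of the 18820 with a probe set annotated to a single symbol matched it. The pattern does not take in every gene of these pathways: Pglyrp1, Mefv and Nek7, for example, were counted in the lists of other genes given last. Of several such probe sets of 1 gene, that with the highest mean in the 11 mice stood for it, which applied to 2 members, Gsdme and Nlrx1. Family names bring in genes that are not microbial sensors in the colon, such as the keratinocyte caspase gene Casp14 and a group of Nlrp genes known from oocytes and embryos.

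RNA from mucosal scrapings of the colon was measured on 1 array per mouse in male C57BL/6J mice of 12 weeks. All of them first ate a low-fat diet for 2 weeks. For the next 10 days, 5 control mice stayed on it, while in the diet of 6 inulin mice inulin took the place of corn starch at 10% by weight. Inulin is a plant fructan that mammals do not digest and colonic bacteria ferment. The labels differ on the last meal: by one, mice that had fasted overnight got 1 g of their diet 4 h before death, and by another the colon came from fasted mice. Scrapings can carry surface and crypt epithelium with some underlying tissue, so lower values of a gene can come from fewer cells of a type or from less RNA per cell, and these cannot be told apart here.

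TLRs recognise microbial lipids, proteins and nucleic acids at the cell surface or inside endosomes, and pass the signal through the adaptors MyD88 and TRIF and the IRAK and RIP kinases to NF-kB and interferon regulatory factors. NLRs and AIM2 patrol the cytosol. Some of them assemble with the adaptor ASC, encoded by Pycard, into inflammasomes that activate caspase-1, and gasdermins cut by caspases form pores in membranes. In the gut epithelium, which lives beside a dense microbiota, NAIP and NLRC4 detect flagellin and bacterial secretion needles and drive the expulsion of infected cells.

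Markers of colon epithelium were high in every mouse, with the mean of 12 colonocyte markers between 11.41 and 11.75 on the log2 scale of the arrays and the mean of 6 goblet cell markers between 11.98 and 12.15, against an upper quartile of 7.74 over all probe sets. Other tissue was present unevenly. The mean of 11 fat cell markers lay between 5.88 and 6.44 in control mice and reached 7.47, 7.94 and 8.38 in inulin mice 2, 4 and 5, and the mean of 9 pancreas markers reached 10.05 in inulin mouse 3 against 5.38 to 7.76 in all other mice. Inulin mouse 5 also had the highest means for macrophage and for B and plasma cell markers. Markers of connective tissue also differed, with 7 of 7 fibroblast markers higher under inulin (list means 5.28 to 5.50 in control and 5.30 to 6.17 in inulin mice), 6 of 6 of smooth muscle (5.00 to 5.68 and 5.15 to 6.01) and 5 of 6 of endothelium (4.49 to 4.74 and 4.64 to 5.51), and 0 of them past the threshold. The part of these tissues in the members' values was not tested.

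None of the 69 members passed the threshold in limma, an adjusted p under 0.05 over all genes, where 17 of the 18820 genes (0.0903%) passed, 10 higher (0.0531%) and 7 lower (0.0372%). At an unadjusted p under 0.05 there were 14 members, 8 higher and 6 lower under inulin, which is 20.3% of the members beside 13.5% of all genes. By direction, the background was 6.34% higher and 7.19% lower. The median difference of the members was 0.03 on the log2 scale and that of all genes 0.0039, and 41 of 69 members (59.4%) had a difference above 0, against 51.4% of all genes. Differences ran from -0.78 for Gsdmc2 to 0.42 for Ripk3, and 51 of the 55 members with an unadjusted p of 0.05 or more differed by less than 0.2. In 3 members the values of the diets did not overlap, Gsdmc, Gsdmc2 (by less than the second decimal) and Casp8, while 2.18% of all genes had such a gap (1.16% with inulin lower, 1.01% with inulin higher). Which members had an unadjusted p under 0.05 depended on the mice included and on the covariate. Without inulin mouse 5 there were 16 (23.2%, beside 15.1% of all genes in that fit), of which 11 were among the 14. Without inulin mice 3, 4 and 5 there were 15 (21.7%, beside 13.4% of all genes), of which 9 were among the 14. Inulin mice 3, 4 and 5 were left out together for their fat or pancreas markers. Inulin mouse 2, with a fat cell marker mean of 7.47, was kept in that fit. With the mean of Hoxb13 and Hoxa13, homeobox genes of the distal colon, as a covariate there were 10 (14.5%, beside 12.3% of all genes). Of these 8 were among the 14, with Casp4, Cd14, Clec7a, Gsdme, Nlrp9c and Nod1 lost and Naip6 and Pycard gained. The plot of the differences by role shows all members.

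**Figure D1:**
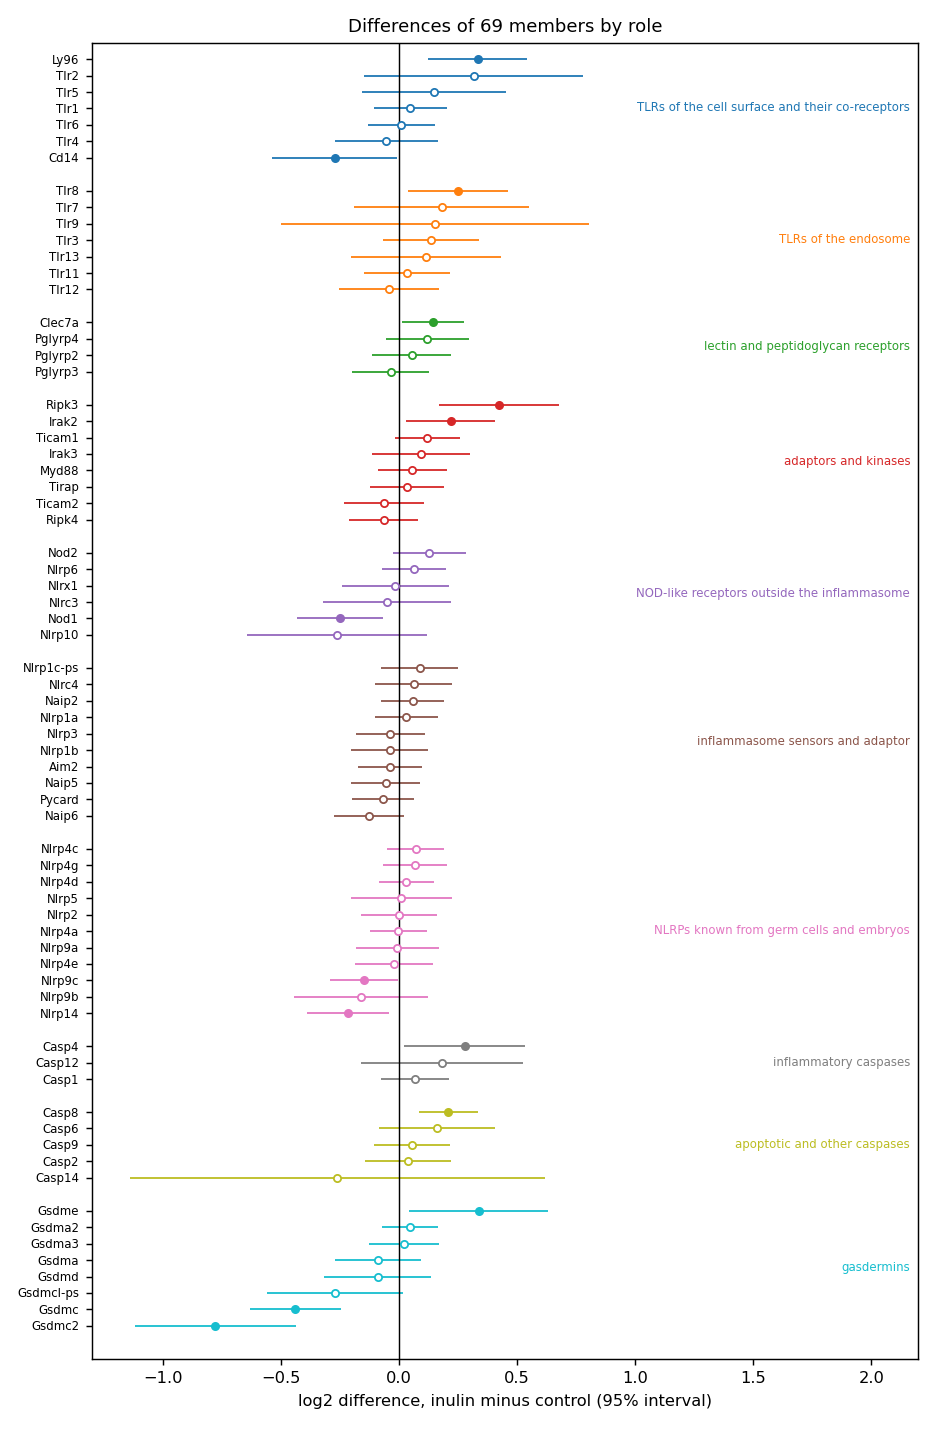
Log2 difference of inulin minus control for the 69 members, grouped by role (colour), with 95% intervals from limma; filled points have an unadjusted p under 0.05. Most intervals include 0, Gsdmc2 lies farthest to the left at -0.78, and Casp14, Tlr9 and Tlr2 have the widest intervals.

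The gasdermins held the 2 largest differences. Of the 8 members 3 were higher and 5 lower, with 0 past the threshold. Gsdmc2, one of a cluster of mouse gasdermin C genes active in intestinal epithelium, was at 11.80, 11.61, 11.64, 11.74 and 11.69 in control mice 1 to 5 and at 10.66, 10.59, 10.63, 11.14, 11.61 and 10.88 in inulin mice 1 to 6. Inulin mouse 5 was level with control mouse 2 to 2 decimals, and the other inulin mice were all below every control. The means were 11.70 ± 0.07 (SD, n = 5) and 10.92 ± 0.40 (SD, n = 6), a difference of -0.78 ± 0.16 (SE) with a 95% interval from -1.12 to -0.44. This is a level 1.71 times lower under inulin, with an adjusted p of 0.071 in limma. Without inulin mouse 5, the inulin mouse with the highest Gsdmc2, the difference was -0.91 ± 0.097 (SE) and passed, with an adjusted p of 0.0025. In that fit 98 of all genes passed, in place of 17. Without inulin mice 3, 4 and 5, where 33 genes passed, the Gsdmc2 difference was -0.98 ± 0.078 (SE), with an adjusted p of 0.00063. That last fit kept inulin mouse 2, which had the lowest Gsdmc2. It left out inulin mice 4 and 5, whose Gsdmc2 was the highest among the inulin mice.

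Gsdmc, which gives the cluster its name, lay close to 3.76, the lower quartile over probe sets, where arrays carry little signal. It was at 4.19, 4.02, 4.38, 4.14 and 4.26 in control mice and at 3.48, 3.69, 3.78, 3.90, 3.96 and 3.73 in inulin mice. Every inulin mouse was below every control mouse. The difference was -0.44 ± 0.088 (SE, adjusted p 0.071 in limma). Without inulin mouse 5, the highest of the inulin mice in Gsdmc too, it was -0.48 and passed with an adjusted p of 0.036, as did 98 of all genes. The transcribed pseudogene Gsdmcl-ps, at the far end of the same cluster, was at 5.20 ± 0.26 (SD, n = 5) and 4.93 ± 0.24 (SD, n = 6), and differed by -0.27 ± 0.13 (SE, adjusted p 0.40), with the diets overlapping. Without inulin mice 3, 4 and 5 that difference was -0.45 (adjusted p 0.19).

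Gsdmc, Gsdmc2, Gsdmc3 and Gsdmc4 lie in a row on chromosome 15, with 3 transcribed pseudogenes between and beside them, and they are near copies, so probes made for one may bind RNA of another and the values of Gsdmc and Gsdmc2 may not be independent. The probe set that the annotation assigns jointly to all 4 genes, which the choice of members left out, was at 11.57, 11.39, 11.50, 11.37 and 11.46 in control and 10.46, 10.33, 10.45, 11.07, 11.43 and 10.76 in inulin mice. The joint probe set differed by -0.70 ± 0.17 (SE, adjusted p 0.20 in limma over all 35556 probe sets), with inulin mouse 5 inside the control values. Its order among the inulin mice was close to that of Gsdmc2, with mice 1, 2 and 3 lowest and mice 4 and 5 highest, as shown in the plot of the Gsdmc family. It is assigned to Gsdmc2 too, so it may read the same RNA.

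**Figure D2:**
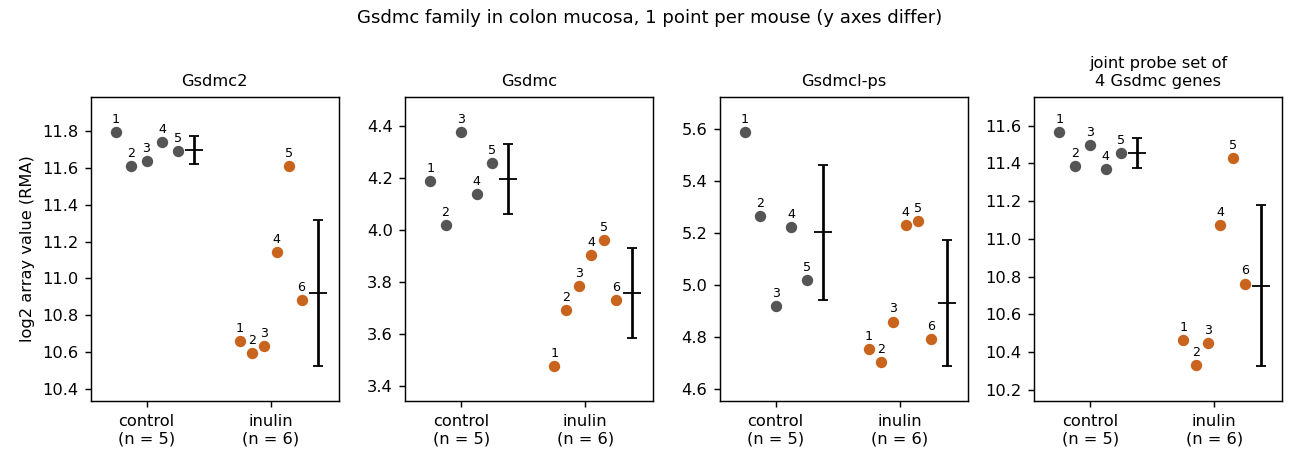
Log2 array values of Gsdmc2, Gsdmc, Gsdmcl-ps and the probe set shared by 4 Gsdmc genes, 1 numbered point per mouse, with mean and SD bars for 5 control and 6 inulin mice. Gsdmc2 lies between 11.61 and 11.80 in control mice and between 10.59 and 11.61 in inulin mice, with inulin mouse 5 level with the controls.

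Tuft cell and position markers also differed between the diets, and the part of tuft cells in the Gsdmc difference was not tested. All 7 measured tuft cell markers were lower under inulin. The mean of these markers was between 6.19 and 6.47 in control and between 5.77 and 6.12 in inulin mice (summed level 9.30 to 9.63 and 8.86 to 9.25 on the log2 scale), and Gnat3, the taste G protein gene gustducin, passed the threshold (adjusted p 0.0069). The mean of 5 Hox genes of the distal colon was between 6.94 and 7.97 in control and 6.36 and 7.26 in inulin mice (summed level 10.10 to 10.98 and 9.23 to 10.65), with 0 of the 5 past the threshold. With the mean of Hoxb13 and Hoxa13 as a covariate, Gsdmc2 differed by -0.75 ± 0.19 (SE) and Gsdmc by -0.42 ± 0.11 (SE), with an adjusted p of 0.16 for each. The 5 Hox genes were all lower under inulin. Hoxd10, Hoxd11 and Hoxd12 differed by -1.50, -1.45 and -0.69 (adjusted p 0.055, 0.055 and 0.11 in limma). Hoxb13 and Hoxa13 differed by -0.62 and -0.46 (adjusted p 0.37 and 0.48). The covariate held only Hoxb13 and Hoxa13, and the Hoxd genes were not part of it. Inulin mouse 5, whose Gsdmc2 was at the control level, had a tuft cell marker mean of 5.99, within the range of the other inulin mice. Its mean of Hoxb13 and Hoxa13 was 9.11, within the control range of 8.79 to 9.41. Its mean of the 5 Hox genes was 6.565, below the control range. Inulin mice 3 and 6 also had a mean of Hoxb13 and Hoxa13 within the control range (8.99 and 9.38), with Gsdmc2 at 10.63 and 10.88. Inulin mouse 4 had the lowest such mean, 7.67, with Gsdmc2 at 11.14.

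The remaining gasdermins differed less. Gsdme, whose product is cut by caspase-3, was at 7.81, 7.91, 7.64, 8.02 and 7.63 in control and 8.42, 8.35, 8.08, 8.40, 7.65 and 7.95 in inulin mice, a difference of 0.34 ± 0.14 (SE, adjusted p 0.30). Inulin mice 3, 5 and 6 overlapped the controls or lay just above them, and 2 other probe sets of Gsdme differed by 0.10 and 0.16. With the Hox covariate the Gsdme difference was 0.12 ± 0.11 (SE, adjusted p 0.70). Gsdmd, the pore-forming target of caspase-1 and caspase-11, had means of 8.66 ± 0.10 (SD) on the control diet and 8.57 ± 0.24 (SD) on inulin (difference -0.09 ± 0.10 SE, adjusted p 0.76), and the difference was -0.18 without inulin mouse 5 (adjusted p 0.28) and 0.01 with the Hox covariate (adjusted p 0.98). Gsdma, Gsdma2 and Gsdma3, known from skin, differed by -0.09 to 0.05.

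Promoter sequences are shown for Casp8, whose diets did not overlap, for Ripk3, whose difference above 0 was the largest, and for Gsdmc3, a gene of the gasdermin C cluster measured only through the probe set shared by 4 genes. They come from RefSeq's promoter table for GRCm38.p6, and none is shown for Gsdmc and Gsdmc2. The 250 bases before the annotated start site are printed 5′ to 3′ in lower case, and capitals mark a match to the TATA box letters TATAA, a motif chosen after the sequences were seen.

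Gsdmc3, chr15:63878559-63878808, strand minus: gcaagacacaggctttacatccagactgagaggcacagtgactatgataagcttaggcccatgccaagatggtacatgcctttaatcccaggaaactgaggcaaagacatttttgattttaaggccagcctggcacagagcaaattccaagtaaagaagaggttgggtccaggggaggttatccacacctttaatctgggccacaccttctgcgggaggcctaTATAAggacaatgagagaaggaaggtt

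Casp8, chr1:58802252-58802501, strand plus: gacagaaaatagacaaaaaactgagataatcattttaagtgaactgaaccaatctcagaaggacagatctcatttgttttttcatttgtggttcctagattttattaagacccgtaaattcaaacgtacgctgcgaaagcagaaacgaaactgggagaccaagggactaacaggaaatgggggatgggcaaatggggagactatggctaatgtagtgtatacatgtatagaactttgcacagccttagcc

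Ripk3, chr14:55788858-55789107, strand minus: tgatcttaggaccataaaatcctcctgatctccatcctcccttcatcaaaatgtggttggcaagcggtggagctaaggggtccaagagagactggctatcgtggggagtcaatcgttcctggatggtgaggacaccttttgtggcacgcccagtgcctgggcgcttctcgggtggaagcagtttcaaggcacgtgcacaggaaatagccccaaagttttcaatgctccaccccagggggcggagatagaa

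The Gsdmc3 window held TATAA on its own strand, 27 bases before the start site, and the windows of Casp8 and Ripk3 held none, while 22.8% of the 32807 windows of this length in the table had a match on either strand. On either strand, none of the 3 windows matched the STAT motif, TTC and GAA with any 4 bases between (5.85% of all windows), the NF-kB consensus (7.25%) or the interferon response motif, GAAA and GAAA with any 2 bases between (2.97%). No match says only that these letters are not in these windows.

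Among the caspases, Casp8, the initiator that death receptors activate and that restrains necroptosis, separated the diets. It was at 10.76, 10.57, 10.49, 10.67 and 10.71 in control and 10.91, 10.91, 10.81, 10.86, 10.78 and 10.84 in inulin mice. Every inulin mouse was above every control, though the gap was small, 10.76 to 10.78. The difference was 0.21 ± 0.057 (SE), a 1.16-fold level with a 95% interval from 0.09 to 0.33 on the log2 scale and an adjusted p of 0.16 in limma. Leaving out each mouse in turn gave 0.17 to 0.24, with an unadjusted p under 0.05 in 11 of 11 fits, and 0 of them passed after adjustment.

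Ripk3, the kinase that carries out necroptosis when caspase-8 is inactive, was at 7.07, 7.09, 7.13, 7.44 and 7.41 in control and 7.95, 7.54, 7.52, 7.55, 7.96 and 7.38 in inulin mice. Only inulin mouse 6 overlapped the controls. The difference was 0.42 ± 0.12 (SE), a 1.34-fold level, with an adjusted p of 0.16, and it ran from 0.36 to 0.48 when each mouse was left out. Mlkl, the membrane-lytic partner of Ripk3, differed by 0.04 ± 0.079 (SE, adjusted p 0.86). Casp8, Ripk3, Ly96 and Nod1 are drawn together in the plot of members with small differences.

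**Figure D3:**
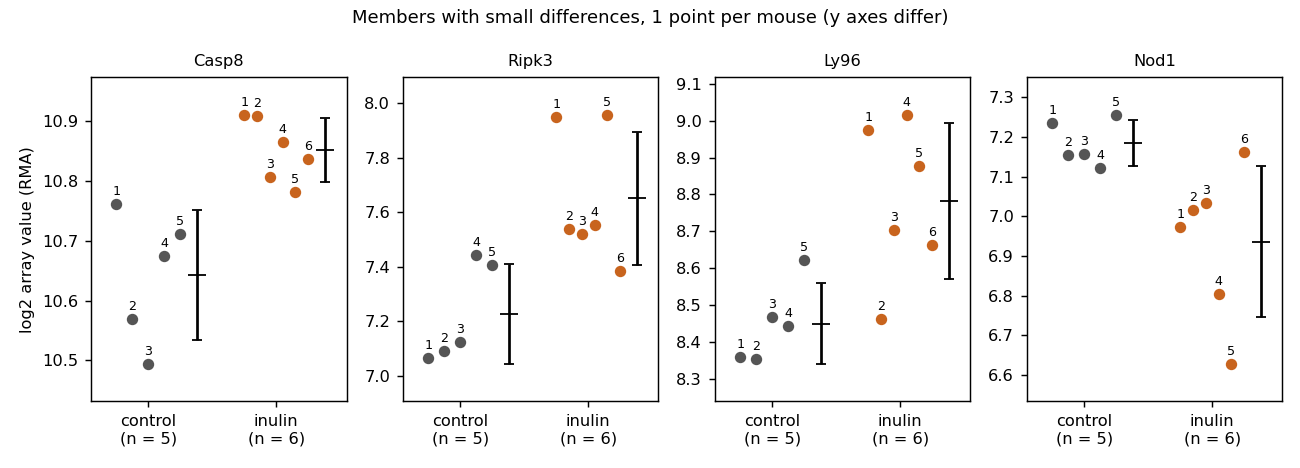
Log2 array values of Casp8, Ripk3, Ly96 and Nod1, 1 numbered point per mouse, with mean and SD bars for 5 control and 6 inulin mice. The diets do not overlap for Casp8 (10.49 to 10.76 and 10.78 to 10.91), and overlap for the other members shown.

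Casp4, which encodes mouse caspase-11, the sensor of cytosolic lipopolysaccharide, had means of 7.82 ± 0.31 (SD) on the control diet and 8.10 ± 0.11 (SD) on inulin. The inulin values, 7.99 to 8.24, overlapped the upper control values, which ran from 7.48 to 8.20, and the difference was 0.28 ± 0.12 (SE, adjusted p 0.33). Casp12, an inflammatory caspase of the endoplasmic reticulum, differed by 0.18 ± 0.16 (SE), with inulin mouse 4 at 5.36 and the others at 4.30 to 4.63, and by -0.10 with the Hox covariate. Casp1, the inflammasome caspase, was at 9.41 ± 0.11 and 9.48 ± 0.11 (SD, difference 0.07 ± 0.067 SE, adjusted p 0.71). Casp2 and Casp9, of stress-induced apoptosis, differed by 0.04 and 0.05, and the executioner gene Casp6 by 0.16 (adjusted p 0.58 to 0.89 for these members). The Casp6 difference was 0.25 without inulin mouse 5 (adjusted p 0.23) and 0.01 with the Hox covariate (adjusted p 0.98).

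Of the cell-surface TLRs and co-receptors, 5 of 7 were higher and 2 lower, with 0 past the threshold. Ly96 encodes MD-2, which holds lipopolysaccharide for TLR4, and it was at 8.36, 8.36, 8.47, 8.44 and 8.62 in control and 8.97, 8.46, 8.70, 9.02, 8.88 and 8.66 in inulin mice. The lowest inulin mouse, mouse 2, lay among the controls and the other inulin mice lay above them. The difference was 0.33 ± 0.096 (SE), a 1.26-fold level (adjusted p 0.17). Cd14, which hands lipopolysaccharide to MD-2, differed the other way, with 7.96, 7.72, 7.95, 7.64 and 8.26 in control and 7.84, 7.51, 7.60, 7.33, 7.61 and 7.92 in inulin mice. The diets overlapped and the difference was -0.27 ± 0.12 (SE, adjusted p 0.35). It was -0.10 with the Hox covariate and -0.15 without inulin mice 3, 4 and 5 (adjusted p 0.75 and 0.68). Tlr4 itself was at 7.85 ± 0.13 and 7.80 ± 0.21 (SD), a difference of -0.05 with a 95% interval from -0.27 to 0.16. Tlr1 and Tlr6, close copies whose products pair with TLR2, differed by 0.05 and 0.01. Tlr1 was at 9.83 in control and 9.87 in inulin mice, while Tlr6 was at 3.96 and 3.97, close to the lower quartile. Whether the Tlr1 probes also bind Tlr6 RNA was not tested.

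Some members varied more between mice of a diet than between diets. Tlr2, the receptor for bacterial lipoproteins, was at 7.39, 7.58, 7.42, 7.89 and 7.44 in control and 8.35, 7.97, 7.40, 8.57, 7.56 and 7.31 in inulin mice. Inulin mice 4, 1 and 2 and control mouse 4 were highest, in that order, and these same 4 mice had the lowest means of Hoxb13 and Hoxa13 (7.67, 8.52, 8.34 and 8.79, against 8.99 to 9.41 in the other mice). The Tlr2 difference was 0.32 ± 0.21 (SE, adjusted p 0.56), and with the Hox mean as a covariate it was -0.10 ± 0.11 (SE, adjusted p 0.76).

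Tlr5, the flagellin receptor, was at 7.81 to 7.95 in control mice and at 8.24, 8.22, 7.95, 8.58, 7.74 and 7.64 in inulin mice. The inulin mice lay on both sides of the narrow control range. The difference was 0.15 ± 0.14 (SE, adjusted p 0.69), and -0.12 ± 0.072 (SE, adjusted p 0.52) with the Hox mean as a covariate. Tlr3, the endosomal receptor for double-stranded RNA, was highest in inulin mouse 4 (9.07) and inulin mouse 1 (8.83), against 8.43 to 8.71 in control mice. Its difference was 0.13 and turned to -0.0089 with the same covariate (adjusted p 0.57 and 0.98). Casp14, known from skin, was lowest in 3 of those 4 mice. It was at 7.02 in control mouse 4, 6.76 in inulin mouse 2 and 7.04 in inulin mouse 4, and at 8.04 to 9.02 in the other mice, with a difference of -0.26 ± 0.41 (SE) that became 0.43 ± 0.29 (SE) with the covariate (adjusted p 0.83 and 0.59). The plot against the Hox mean shows these members.

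**Figure D4:**
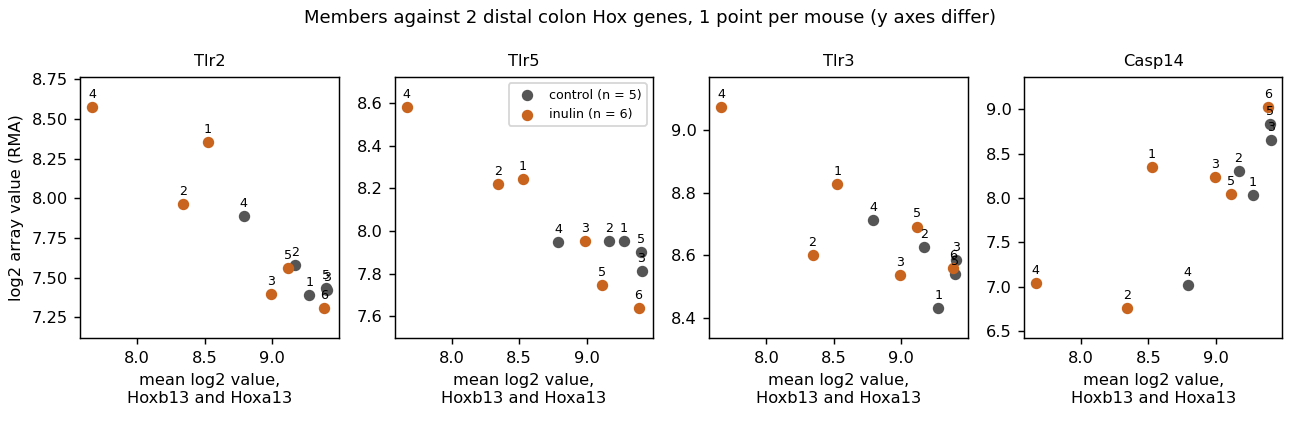
Log2 array values of Tlr2, Tlr5, Tlr3 and Casp14 (y axes) against the mean log2 value of Hoxb13 and Hoxa13 (x axes), 1 numbered point per mouse, 5 control (grey) and 6 inulin (orange). Inulin mouse 4, at a Hox mean of 7.67, has the highest Tlr2, Tlr5 and Tlr3, and Casp14 is lowest in inulin mice 2 and 4 and control mouse 4.

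The other endosomal TLRs, which sense microbial RNA and DNA mainly in immune cells, were dim, with 4 of the 7 members below the lower quartile in both diets. Tlr9, the receptor for bacterial DNA, was at 4.84, 4.97, 4.61, 5.21 and 4.31 in control and 5.00, 4.59, 4.24, 4.89, 6.31 and 4.62 in inulin mice. Tlr7, for single-stranded RNA, was at 4.02 in inulin mouse 5 and 2.78 to 3.14 in all other mice, and Tlr13, for bacterial ribosomal RNA, at 3.98 there and 2.89 to 3.48 elsewhere. Inulin mouse 5 was the highest mouse in these 3 genes, and inulin mouse 6 the lowest in Tlr13. In inulin mouse 5 the mean of 5 B and plasma cell markers was 7.99 (5.38 to 6.68 in the others) and that of 13 macrophage markers 6.23 (5.19 to 5.49 in the others). The part of these cells in the TLR values was not tested. The differences of Tlr7, Tlr9 and Tlr13 were 0.18, 0.15 and 0.12 with this mouse and 0.01, -0.12 and -0.0016 without it (adjusted p 0.69 to 0.87 and 0.77 to 0.997). Tlr11 and Tlr12, sensors of protozoan profilin, were below the lower quartile and differed by 0.04 and -0.04.

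**Figure D5:**
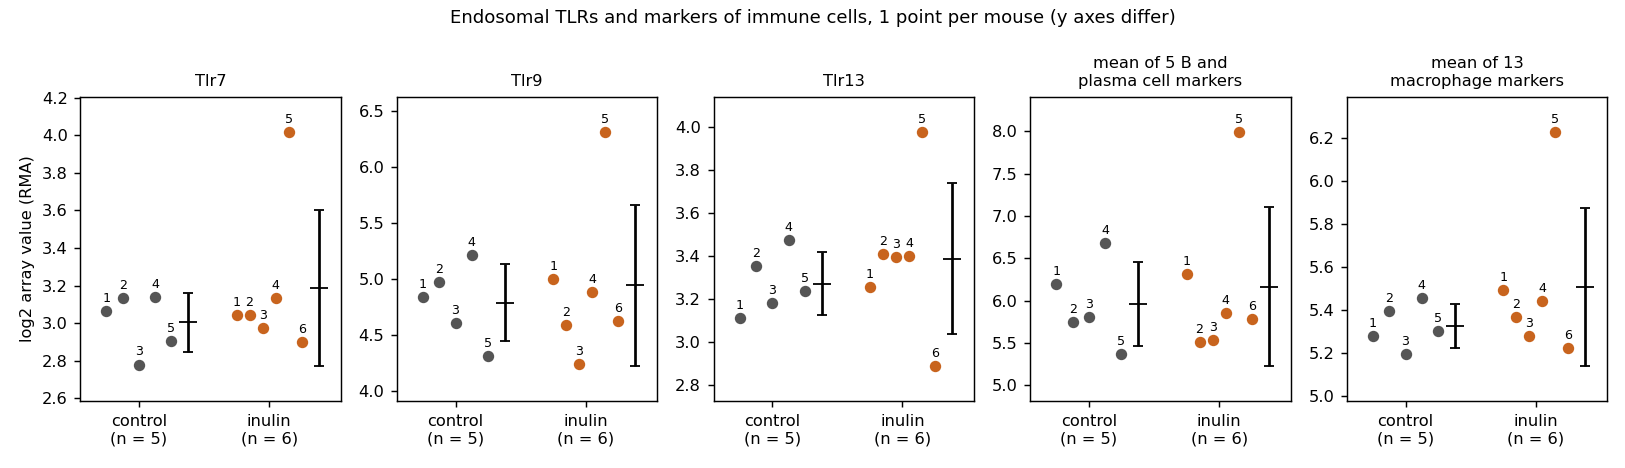
Log2 array values of Tlr7, Tlr9 and Tlr13 and the means of 5 B and plasma cell markers and 13 macrophage markers, 1 numbered point per mouse, with mean and SD bars for 5 control and 6 inulin mice. Inulin mouse 5 is the highest point in every panel, at 4.02 for Tlr7 and 6.31 for Tlr9.

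Tlr8, also an RNA sensor of phagocytes, was at 3.68 ± 0.11 (SD, n = 5) and 3.93 ± 0.22 (SD, n = 6), near the lower quartile. Its difference was 0.25 ± 0.098 (SE, adjusted p 0.29), and 0.19 without inulin mouse 5. Clec7a, the fungal glucan receptor dectin-1 of phagocytes, was also near it, at 3.69 and 3.83 (difference 0.14 ± 0.061 SE, adjusted p 0.33). The 13 macrophage markers were all higher under inulin, 2 of them at an unadjusted p under 0.05 and 0 past the threshold, with list means of 5.19 to 5.45 in control and 5.22 to 6.23 in inulin mice (summed level 10.41 to 10.79 and 10.35 to 11.46). Without inulin mouse 5, 9 of the 13 were higher and 4 lower, and the median difference was 0.02 in place of 0.22. In that fit 1 marker (Ms4a7, named after its value was seen) passed the threshold, where 98 of all genes passed. The part of macrophages in the values of Tlr8 and Clec7a was not tested. The peptidoglycan recognition proteins Pglyrp2, Pglyrp3 and Pglyrp4 differed by -0.03 to 0.12, and 2 of these 3 genes were below the lower quartile.

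Among adaptors and kinases, Irak2, which sustains TLR signalling, was at 8.84 ± 0.11 (SD, n = 5) and 9.06 ± 0.18 (SD, n = 6), a difference of 0.22 ± 0.086 (SE, adjusted p 0.30). Inulin mouse 5 was highest at 9.41, the other inulin mice lay at 8.94 to 9.04 against 8.68 to 8.99 in control, and the difference was 0.15 without that mouse. Myd88, the shared adaptor of most TLRs, was at 9.06 ± 0.09 and 9.12 ± 0.12 (SD, difference 0.06 with a 95% interval from -0.09 to 0.20). Ticam1, which encodes TRIF, differed by 0.12 ± 0.064 (SE, adjusted p 0.43). Irak3, a brake on the pathway, Tirap, Ticam2 and Ripk4 differed by -0.06 to 0.09.

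Nod1 senses a peptidoglycan fragment of mostly Gram-negative bacteria. It was at 7.24, 7.15, 7.16, 7.12 and 7.26 in control and 6.97, 7.02, 7.03, 6.80, 6.63 and 7.16 in inulin mice. Inulin mouse 6 lay among the controls and the other inulin mice lay below them. The difference was -0.25 ± 0.084 (SE, adjusted p 0.23), and leaving out each mouse in turn gave -0.29 to -0.19. Without inulin mice 3, 4 and 5 it was -0.13 ± 0.065 (SE, adjusted p 0.41). Nod2, the receptor for muramyl dipeptide, differed by 0.13 ± 0.071 (SE, adjusted p 0.45), with means of 5.23 and 5.36. Nlrp10 differed by -0.26 ± 0.18 (SE), and by 0.01 with the Hox covariate, and Nlrc3 and Nlrx1, which restrain innate signalling, by -0.05 and -0.02. Nlrp6, an epithelial NLR linked to mucus and the microbiota, was at 10.00 ± 0.07 and 10.07 ± 0.11 (SD), a difference of 0.06 with a 95% interval from -0.07 to 0.20.

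The 10 genes grouped here as inflammasome sensors and their adaptor differed by -0.13 to 0.09, 4 higher and 6 lower. Of these genes 0 were at an unadjusted p under 0.05 and 0 past the threshold. The group leaves out the epithelial genes Nlrp6 and Nlrp9b, which are given with other roles. The epithelial flagellin and needle sensors Naip2, Naip5 and Naip6, close paralogs in 1 cluster on chromosome 13 whose probes may not separate them, were at 10.20, 9.88 and 10.70 in control mice. They differed by 0.06, -0.05 and -0.13. With the Hox covariate Naip6 differed by -0.21 ± 0.067 (SE, adjusted p 0.23) and Pycard, encoding the adaptor, by -0.14 ± 0.062 (SE, adjusted p 0.40). Nlrc4, which joins NAIPs to caspase-1, was at 8.55 ± 0.10 and 8.61 ± 0.14 (SD), and Pycard at 9.56 ± 0.05 and 9.50 ± 0.11 (SD). The 95% intervals of their differences were -0.10 to 0.23 and -0.20 to 0.06, and that of the DNA sensor gene Aim2 was -0.17 to 0.10. Nlrp3, the sensor of membrane damage in myeloid cells, was below the lower quartile at 3.58 and 3.54. The anthrax toxin sensor gene Nlrp1b differed by -0.04 and its close copies Nlrp1a and Nlrp1c-ps, below the lower quartile, by 0.03 and 0.09.

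The 11 Nlrp genes known from germ cells and embryos differed by -0.22 to 0.07. Of these, 10 were below the lower quartile in both diets, where little signal is left to compare, among them Nlrp14 and Nlrp9c, 2 of the members at an unadjusted p under 0.05 (differences -0.22 and -0.15, adjusted p 0.27 and 0.36). The exception was Nlrp9b, which also acts as an antiviral sensor in intestinal epithelium. It was at 9.13 to 9.44 in control and 8.74, 9.17, 9.01, 9.17, 9.69 and 9.03 in inulin mice, with inulin mouse 5 highest. Its difference was -0.16 ± 0.13 (SE, adjusted p 0.64), and -0.27 without inulin mouse 5 (adjusted p 0.18). The Nlrp4 genes are near copies, and their probes may not separate them. The Nlrp9 genes are near copies too, but Nlrp9a (means 3.00 in control and 2.99 in inulin mice) and Nlrp9c (3.02 and 2.87) were far below Nlrp9b (9.29 and 9.13). Whether the Nlrp9b probes also bind RNA of the other Nlrp9 genes was not tested.

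Other genes of these pathways were taken as 6 lists, and 0 of their members passed over all genes. For the counts below, the shares over all genes were 51.4% with a difference above 0 and 13.5% at an unadjusted p under 0.05. Diets without overlap were found in 2.18% of all genes. In the relay from TRAFs to NF-kB, 9 of 16 genes were higher and 3 were at an unadjusted p under 0.05. The CARD adaptor gene Bcl10 was at 9.17 to 9.32 in control and 9.34 to 9.57 in inulin mice without overlap (difference 0.20 ± 0.054 SE), and the kinase gene Syk differed by 0.48 ± 0.16 (SE), with inulin mouse 5 highest (0.34 without it). Also at an unadjusted p under 0.05, Rel differed by 0.27 ± 0.090 (SE, adjusted p 0.22 in limma), and by 0.25 without inulin mouse 5. Traf6 and Rela differed by -0.0085 and -0.04. Of 11 brakes of the pathway, 8 were higher, and Nfkbib, an inhibitor of NF-kB, was at 9.41 to 9.47 and 9.55 to 9.83 without overlap (0.22 ± 0.059 SE, adjusted p 0.16, as for Bcl10), followed by Tank with 0.14.

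In the IL-1 family and its receptors, 6 of 12 genes were higher and 6 lower. Of the inflammasome products, Il1b was at 4.38 in both diets (difference 0.0042 ± 0.088 SE) and Il18 at 8.64 ± 0.13 and 8.37 ± 0.45 (SD, adjusted p 0.54). Il1rn, the natural antagonist of the IL-1 receptor, differed by -0.29 ± 0.13 (SE, adjusted p 0.36), and the IL-18 receptor gene Il18r1 by 0.20. In the interferon branch 7 of 12 genes were higher, led by Irf7 (0.25 ± 0.11 SE, adjusted p 0.35) and Zbp1 (0.35 ± 0.22 SE, adjusted p 0.50, and 0.19 without inulin mouse 5). Of 15 inflammasome and cell death partners 6 were higher, with Xiap (0.15) and Bid (-0.11) having the smallest p, and of 12 other bacterial recognition genes 11 were higher, with Slc15a3 (0.26, and 0.15 without inulin mouse 5) and Pglyrp1 (0.13) having the smallest p. Without inulin mouse 5, 5 of the 12 interferon branch genes, 4 of the 12 of the IL-1 family and 10 of the 12 other bacterial recognition genes were higher. The median differences of the 6 lists ran from -0.03 to 0.11, beside 0.0039 for all genes.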

How the data were processed

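RNA of colon mucosal scrapings from 5 control and 6 inulin mice was measured on 1 array each. The authors deposited log2 values, and the submitters' processing notes name RMA (robust multi-array average), without a version or build. RMA makes the arrays alike, which removes shifts shared by most genes. Values ran from 1.46 to 13.7. Raw scans were not analysed here, hence no background is known, and 11 arrays limit the precision.

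Groups came from the titles of the samples. Of 35556 probe sets 21218 had 1 symbol in the platform annotation (old symbols may remain) and 1881 had several, and the rest stayed unnamed. The Entrez numbers of all 69 members were found in the RefSeq table of GRCm38.p6. Inulin minus control was fitted with limma 3.58.1 in R 4.3.3 (lmFit, eBayes, no covariate) on 18820 genes, and p-values were adjusted by Benjamini-Hochberg over all of them. The steps were tested on simulated data. The labels name no batch or cage, so none was tested. Mice were separate animals. Members and lists were chosen with earlier results of these data known. Named members are those at an unadjusted p under 0.05, those whose diets do not overlap, the brightest of each role and those above the upper quartile, with the 2 genes of smallest p in each pathway list. Others, including Tlr2, Tlr7, Tlr9, Tlr13, Casp12, Nod2, Gsdmcl-ps, Nlrp10, Mlkl, Rel, Traf6, Rela, Il1b and Il18, were chosen after their values were seen. Alternatives were another variance prior, array weights, a filter at the 40th percentile, quantile normalisation, median centring, averaging probe sets per gene, blocking on replicate number, an unmoderated test with unequal variances, a threshold of 0.1, leaving out mice, and a Hox covariate.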

Additional observations from a re-analysis of the deposited data

Results flagged for a closer look

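In 9 of 138 groups of values, a member and a diet each, 1 mouse lay far from the others by Dixon's ratio of gap to range. Chance flags about 1 in 20 such groups. Inulin mouse 5 was apart in 3 of them, with Irak2 at 9.41 (next 9.04), Tlr7 at 4.02 (next 3.13) and Tlr9 at 6.31 (next 5.00). Inulin mouse 4, with the lowest Hox mean, was apart in Casp12, an inflammatory caspase, at 5.36 (next 4.63), and the Casp12 difference went from 0.18 to -0.10 with the Hox covariate. Control mouse 5 was apart in Casp2 at 9.19 (next 9.40), in Nlrp5 at 3.59 (next 3.37) and in Tlr1 at 10.05 (next 9.80). Inulin mouse 6 was apart in Aim2 at 9.16 and inulin mouse 2 in Ticam1 at 8.58 (next 8.75).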

How the results depend on the processing

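Of 36 named members 25, among them all 14 at an unadjusted p under 0.05, kept their direction under every alternative run. Members past the threshold numbered 0, and 2 (Gsdmc and Gsdmc2) with array weights, with a threshold of 0.1, and without inulin mice 3, 4 and 5; leaving out each mouse gave 0 to 2, with 2 only without inulin mouse 5. Genes past it numbered 17, but 42 with a trended prior, 245 with array weights, 52 with the filter, 62 with median centring (44 higher and 18 lower), 0 in the unmoderated test, where 13% of genes had an unadjusted p under 0.05, 130 at the threshold of 0.1, 33 without inulin mice 3, 4 and 5, and 7 to 98 leaving out each mouse: 7 without control mouse 1 or 2, 8 without control 5, 9 without inulin 1, 10 without control 3 or inulin 2, 11 without inulin 3, 38 without control 4, 50 without inulin 6 and 98 without inulin 5. The 14 members at an unadjusted p under 0.05 became 9 with the filter, which tests 40 members (22.5%, beside 17.7% of all genes). They became 9 to 16 leaving out each mouse. The 9 came without control mouse 3 (13%, beside 10.5% of all genes). The 16 came without control mouse 4 or inulin mouse 5 (23.2% in each, beside 12% and 15.1% of all genes). Among the 36 named members, the sign turned with the Hox covariate for Tlr5 (-0.12), Tlr3 (-0.0089), Tirap (-0.0071), Nlrc4 (-0.028), Nlrp1b (0.011), Casp14 (0.43), Casp2 (-0.10) and Gsdmd (0.011), and without inulin mice 3, 4 and 5 for Pglyrp2 (-7.9e-06). Outside the 36, the Hox covariate also turned the sign of other members, among them Tlr2 (-0.098), Casp12 (-0.10), Nlrp10 (0.011) and Nlrx1 (0.13). Of the 36, leaving out each mouse turned the sign for Tlr4 (-0.11 to 0.016), Tirap (-0.017 to 0.071), Aim2 (-0.070 to 0.0018), Nlrp1b (-0.075 to 0.012) and Casp2 (-0.0029 to 0.084). The replicate block, which drops inulin mouse 6, gave 95 genes and 0 members. Deviations of same-numbered mice correlated at -0.10 to 0.22, and 2 of 5 controls went best with their own number. These values do not settle whether the numbers pair mice, and the reported fit did not pair them. The cause of the changes between the alternatives was not tested. Values below the lower quartile limit what 20 of the 69 members can show.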

Other observations

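Probe sets annotated to several genes were outside the choice of members. The one shared by Irak1, a kinase gene of TLR and IL-1 receptor signalling, and the microRNA gene Mir718 was at 7.52, 7.43, 7.67, 7.58 and 7.54 in control and 7.40, 7.29, 7.28, 7.28, 7.23 and 7.27 in inulin mice, without overlap, and it differed by -0.25 ± 0.054 (SE; adjusted p 0.13 in limma over all 35556 probe sets). The 2 probe sets shared by Gsdmc2 and Gsdmc4 differed by -0.94 ± 0.30 (SE) and -0.67 ± 0.18 (SE), with an adjusted p of 0.29 and 0.25 and with inulin mouse 5 at 9.12 and 11.04, inside the control values. The 2 shared by Gsdmcl2 and Gsdmcl-ps, both below the lower quartile, differed by -0.05 and -0.01.

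The probe set shared by Casp9, the initiator caspase gene of the apoptosome, and the pancreatic elastase gene Cela2a was at 10.26 in inulin mouse 3, 7.62 in inulin mouse 5 and 5.77 to 6.80 in the other mice. The probe set of Casp9 alone was at 7.39 in inulin mouse 3, within its range of 7.15 to 7.50 over all mice, and the mean of the 9 pancreas markers in that mouse was 10.05.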
